A study of Mus musculus with 6 samples.

Results

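The genes described here carry proteins out of the endoplasmic reticulum (ER), back to it, and into the Golgi. They are the subunits of the COPII and COPI coats, the TMED and KDEL receptors, other cargo receptors of the ER and the ER-Golgi intermediate compartment (ERGIC), and the SNAREs and tether that receive the vesicles. The 46 genes were listed by name and found on the array through the RefSeq accessions of its probes. A total of 67 probes matched 45 of them, and Ergic2 had no matching probe. A probe was kept where both arrays of some genotype had it well above background, which held for 65 of them, and these represented 44 of the 19122 genes tested. The single Sec24b probe was not well above background on any array, which removed the remaining gene. No member probe was saturated.

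The series asked what the ER stress transducer ATF6 does in the lengthening of long bones. RNA came from the growth plate of the tibia, the cartilage layer where bones lengthen, cut out by laser microdissection from untreated male C57BL/6J mice aged 4 weeks. The 3 genotypes were ATF6aKO (labelled as knockout of ATF6a, gene Atf6), ATF6bKO (the same for ATF6b, gene Atf6b) and WT (wild type), with 2 arrays each. The labels give neither the deleted exons nor the kind of allele. They do not tell if the arrays within a genotype are different animals, and the p-values measure a spread between arrays that could be technical.

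COPII vesicles form at ER exit sites when the GTPase SAR1, loaded by its exchange factor PREB (also called SEC12), recruits an inner SEC23-SEC24 layer that holds cargo and an outer SEC13-SEC31 cage. COPI vesicles, whose coatomer is recruited by ARF GTPases, return receptors and escaped ER proteins from the Golgi, and the KDEL receptors are the best known of these returning cargoes. Chondrocytes secrete very large amounts of collagen and proteoglycan, and defects of COPII subunits such as SEC23A are known to retain collagen in the ER and to disturb the skeleton.

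ATF6 is known to act on promoters through the ER stress response element (ERSE), a CCAAT and a CCACG that lie 9 bases apart, and to bind the letters TGACGTGG, called here the UPRE. Promoter windows from 250 bases before to 50 bases after a start, taken from RefSeq on GRCm38.p6, were found for 41 of the 46 genes and held 46 starts. On either strand, the ERSE was in 0 of the 41 members and in 0.137% of the 27025 genes with a window. The ERSE-II, an ATTGG and a CCACG 1 base apart, was likewise in 0 members and in 0.0444% of genes. The UPRE was in 6 of 41 members (14.6%), namely Sec23a, Sec24d, Copb1, Copb2, Arf1 and Kdelr3, and in 0.714% of all genes. The related cyclic AMP response element (CRE, TGACGTCA) was in Cope and Gosr2 (4.88%, against 2.03% of genes). The CCACG letters alone, which the UPRE contains on its opposite strand, were in 73.2% of members and 35.5% of genes. CCAAT was in 43.9% and 41.1%, and ACGT, which lies inside both the UPRE and the CRE, in 65.9% and 33.8%. A match is a description of the letters, not evidence of binding.

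The 6 sites with the UPRE letters are shown because they span both coats, an ARF and a retrieval receptor. Each is written 5′ to 3′ on the gene's strand with the UPRE in capitals, which read CCACGTCA where the match lies on the opposite strand.
Sec23a (chr12:59011993-59012022, minus strand): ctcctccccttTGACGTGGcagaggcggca
Sec24d (chr3:123267445-123267495, plus strand): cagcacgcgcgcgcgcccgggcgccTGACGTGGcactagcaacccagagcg
Copb1 (chr7:114254681-114254733, minus strand): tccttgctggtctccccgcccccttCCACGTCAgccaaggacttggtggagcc
Copb2 (chr9:98563713-98563742, plus strand): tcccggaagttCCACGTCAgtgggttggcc
Arf1 (chr11:59228228-59228257, minus strand): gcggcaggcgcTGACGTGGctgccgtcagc
Kdelr3 (chr15:79516353-79516407, plus strand): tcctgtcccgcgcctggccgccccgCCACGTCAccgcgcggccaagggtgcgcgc
Counted from the start site, the first UPRE base lies at position -26 in Sec24d, -28 in Copb1, -30 in Kdelr3 and -7 in Copb2. In Sec23a it lies at 7, just inside the transcript. Arf1 has a pair of starts, and the same site lies at 22 from one and at -84 from the other.

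Levels below are normalised log2 intensities, and a difference of 1 is a doubling. They compare a probe between arrays and do not rank genes by abundance. The knockout arrays lay on 1 slide, read in the red channel of a 2-channel scan. The WT arrays lay on another slide read in 1 channel, which is named green although the labels give Cy5. Genotype, slide and channel therefore cannot be told apart in any difference from WT. Spots well above background made up 86.9% to 96.7% of each array. Arrays correlated at 0.970 to 0.988 (Pearson's r over all probes) among the knockouts, at 0.960 between the WT arrays, and at 0.851 to 0.906 between slides. Atf6 was 7.02 ± 0.07 in ATF6aKO, 6.96 ± 0.07 in ATF6bKO and 7.17 ± 0.17 in WT (SD, n = 2 arrays each). Atf6b was 8.70 ± 0.31, 8.59 ± 0.25 and 9.13 ± 0.10 in the same order, and no difference in either gene passed the threshold. Whether these probes lie in the deleted parts is not given, so they do not check the labels.

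The cell markers also differed between arrays. The mean level of 14 chondrocyte markers was 11.49 and 11.88 on the ATF6aKO arrays, 10.85 and 9.77 on the ATF6bKO arrays, and 9.04 and 9.14 on the WT arrays. Sox9, a defining chondrocyte factor, was not well above background in WT, where Col2a1 still read 10.88 and 11.15. WT replicate 1 stood apart in the mean of 7 osteoblast and osteocyte markers (11.02, against 7.57 to 8.09 on the other arrays). It also did in the mean of 8 osteoclast markers (9.98, against 7.95 to 8.14). Only some genes carried these means, namely Col1a1 (13.65, against 6.74 on WT replicate 2), Col1a2, Ibsp and Sp7, and Acp5, Ctsk and Mmp9. Bglap2 (10.56, against 10.22 on WT replicate 2), Ocstamp and Calcr were highest there by less. Sost, Mepe, Oscar, Dcstamp and Atp6v0d2 were not highest there. The means of red cell and endothelial markers were higher on both WT arrays (9.34 and 8.53 against 7.40 to 7.68, and 8.81 and 8.35 against 7.58 to 7.77). Of 8 red cell genes, 4 lay below WT on both ATF6aKO arrays and 5 on both ATF6bKO arrays. Epb42 lay above WT in both knockouts (7.58 to 7.77, against 6.70 and 6.92). Of 9 endothelial genes, 7 lay below WT in each knockout and 0 above. Over all 19122 genes, 7382 lay below WT and 6614 above on both ATF6aKO arrays (73.2% without overlap). On both ATF6bKO arrays 7552 lay below and 6375 above (72.8%). The part of the marked cell types in the differences from WT was not tested, and fewer cells of a type cannot be told apart from less RNA per cell.

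**Figure D1:**
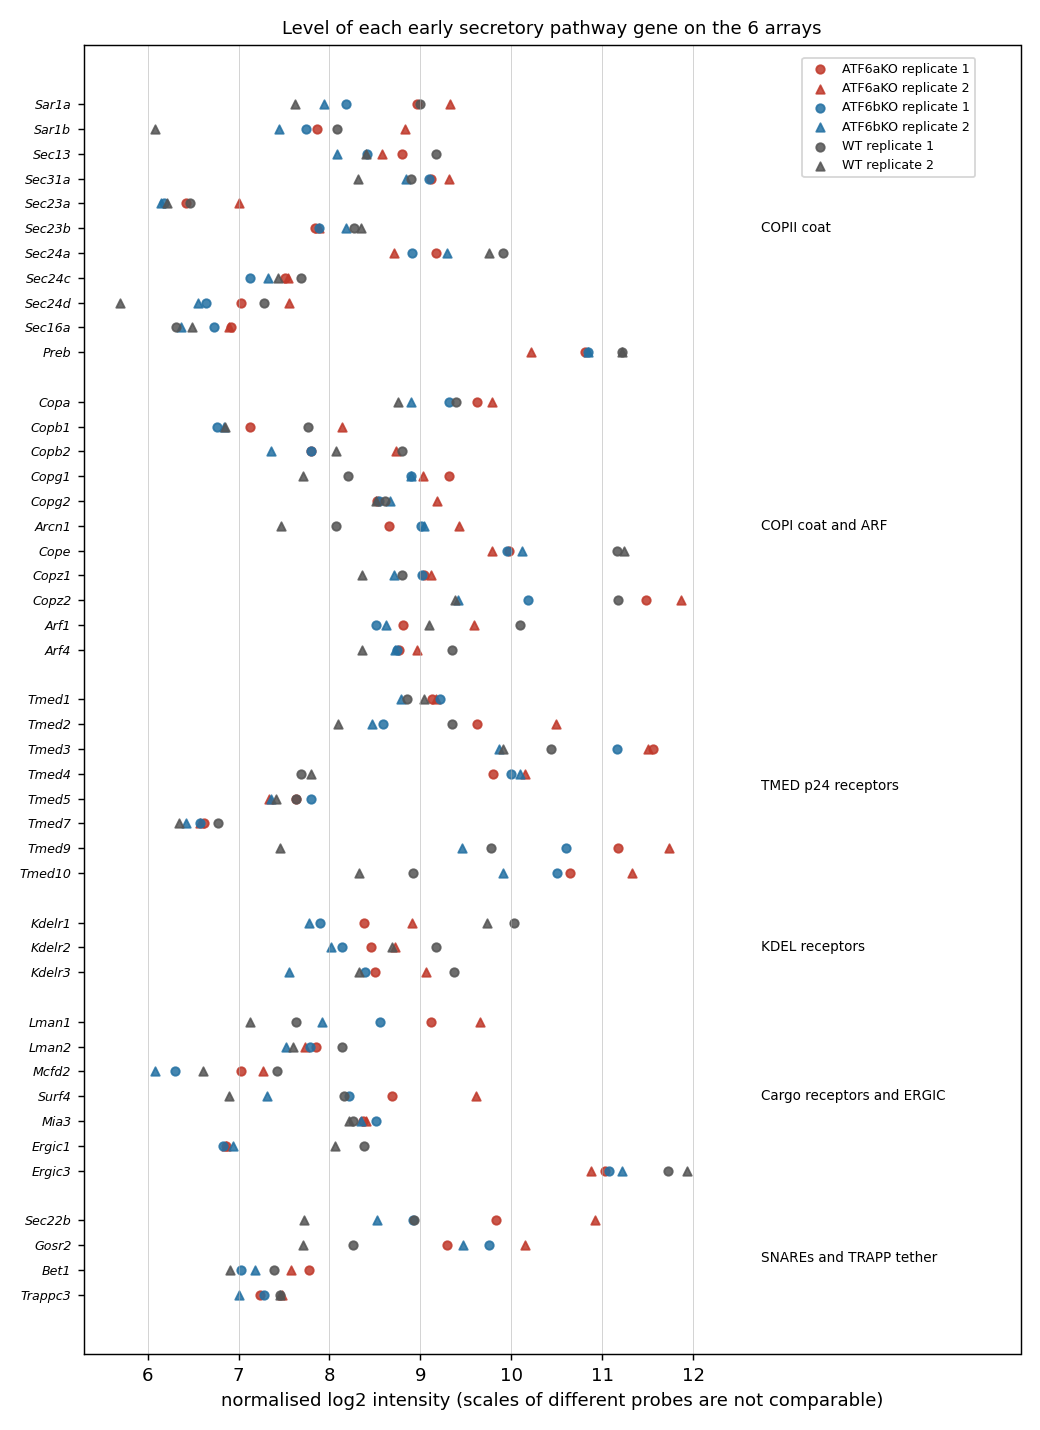
Normalised log2 intensity of the brightest probe of each of the 44 member genes (x axis) on the 6 arrays, grouped by role; colours are genotypes and marker shapes are replicates. Tmed4, Tmed10, Arcn1, Copg1 and Gosr2 separate WT below both knockouts, Cope, Kdelr1, Ergic1 and Ergic3 separate it above, and WT replicate 1 lies above WT replicate 2 in 38 of the 44 genes.

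Against WT, 17 of the 44 members passed an adjusted p of 0.05 (limma, Benjamini-Hochberg) in ATF6aKO, 11 higher and 6 lower. That is 38.6% of members, where 42.7% of all genes passed (20.3% higher and 22.3% lower). The members' median difference was 0.31, beside -0.03 over all genes. In ATF6bKO 12 of 44 passed, 5 higher and 7 lower, which is 27.3% of members where 37.6% of all genes passed (17.3% higher and 20.3% lower), with medians of -0.09 and -0.05. By gene and with all arrays, both shares lay below the background of their comparison. Both comparisons use the same WT arrays. Counted by probe, 43.1% of the 65 member probes passed in ATF6aKO (background 41.9%) and 26.2% in ATF6bKO (background 36.5%). Single arrays moved the counts and turned this order. The ATF6aKO count was 9 without ATF6aKO replicate 2 (20.5% of members, 24.5% of genes). When WT replicate 1 was left out it was 24, which was above the background (54.5%, against 42.2%), and without ATF6aKO replicate 1 the shares were 38.6% and 37.0%. The ATF6bKO count was 4 without ATF6bKO replicate 1 (9.09%, against 16.1%) and 6 without its replicate 2 (13.6%, against 19.8%). When WT replicate 2 was left out it was 17, above the background (38.6%, against 32.6%). The members' median in ATF6bKO was 0.16 when WT replicate 1 was left out.

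**Figure D2:**
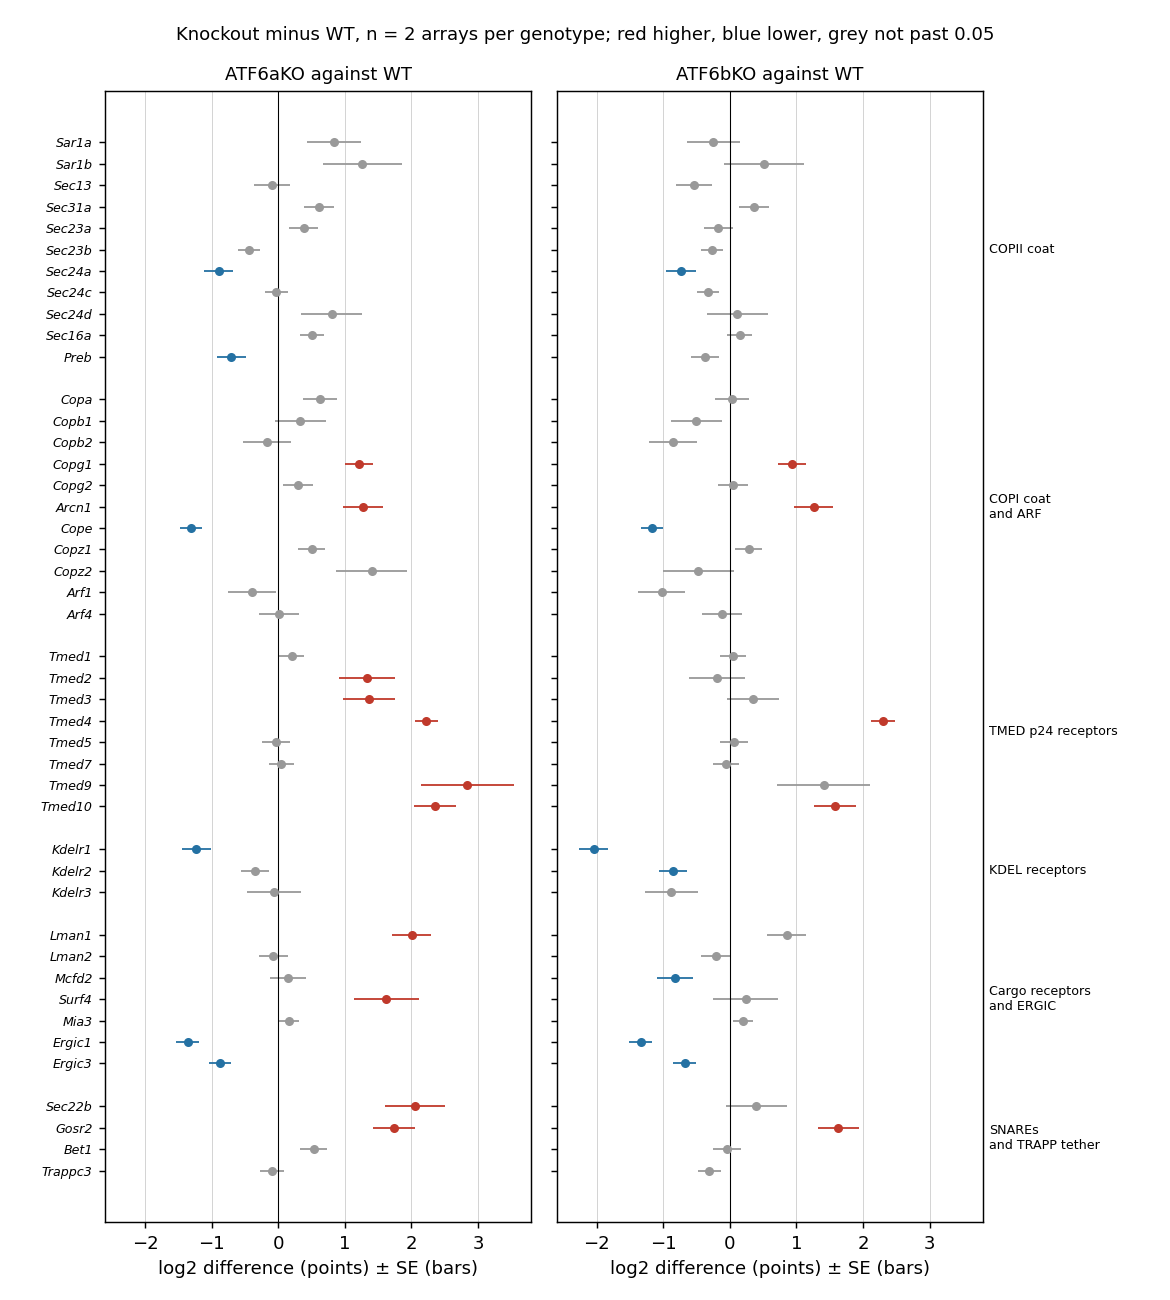
Log2 difference of each member from WT in ATF6aKO (left) and ATF6bKO (right); points are fitted differences, bars are SE (n = 2 arrays per genotype), and colour marks direction where the adjusted p is below 0.05. The TMED receptors hold 5 of the 11 higher calls in ATF6aKO, the KDEL receptors lie at or left of 0 in both panels, and the COPII genes hold no higher call.

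Among the 11 COPII genes tested, no gene was called higher against WT in either knockout. The lower calls made up 18.2% in ATF6aKO and 9.09% in ATF6bKO, where 42.7% and 37.6% of all genes passed. Sec24a, a cargo-binding inner coat subunit, read 9.17 and 8.71 (ATF6aKO), 8.91 and 9.29 (ATF6bKO), and 9.91 and 9.76 (WT). All 4 knockout arrays lay below both WT arrays. Sec24a fell by 0.89 ± 0.22 (SE) in ATF6aKO (1.86-fold, limma adjusted p = 0.0145) and by 0.73 ± 0.22 in ATF6bKO (1.66-fold, adjusted p = 0.0334). Preb, the membrane-bound exchange factor that loads SAR1, read 10.81 and 10.22 (ATF6aKO), 10.84 and 10.84 (ATF6bKO), and 11.22 and 11.22 (WT). WT again lay above both knockouts, and the difference passed in ATF6aKO (-0.71 ± 0.21, adjusted p = 0.0318) but not in ATF6bKO (-0.38 ± 0.21, adjusted p = 0.2). The 2 further Preb probes ran the other way and were called higher in both knockouts, by 1.46 and 0.77 in ATF6aKO and by 1.29 and 0.83 in ATF6bKO. The second Sec24a probe differed from WT by -0.08 and -0.21.

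The Sec24a and Preb calls also rested on single arrays. Without ATF6aKO replicate 2 the differences were -0.66 (Sec24a, adjusted p = 0.0867) and -0.41 (Preb, adjusted p = 0.135). The Preb call was lost without any 1 of the other arrays but ATF6aKO replicate 1, with adjusted p between 0.0539 and 0.0601. In ATF6bKO the Sec24a difference was -0.54 without ATF6bKO replicate 1 (adjusted p = 0.203), -0.93 without ATF6bKO replicate 2 (adjusted p = 0.0561) and -0.66 without WT replicate 1 (adjusted p = 0.0773).

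Sec23a, the inner coat subunit tied to collagen export and to skeletal disease, was dim. It read 6.43 and 7.01 (ATF6aKO), 6.18 and 6.15 (ATF6bKO), and 6.46 and 6.21 (WT), and it was well above background on no ATF6bKO array and on 1 WT array. Both ATF6aKO arrays lay above both ATF6bKO arrays, and the WT arrays lay above ATF6bKO and overlapped ATF6aKO. The difference between the knockouts was at least 1.43-fold, computed from the ATF6aKO mean against the ATF6bKO arrays' own signal or the detection limit, whichever was higher, and it did not pass (adjusted p = 0.782). Sec24d, a SEC24 paralogue known from craniofacial cartilage, read 7.02 and 7.55 (ATF6aKO), 6.65 and 6.56 (ATF6bKO), and 7.28 and 5.70 (WT). Here too ATF6aKO lay above ATF6bKO, while one WT array lay between the ATF6aKO arrays and the other below every knockout array. Its difference from WT was 0.80 ± 0.45 in ATF6aKO (adjusted p = 0.189) and 0.11 ± 0.45 in ATF6bKO (adjusted p = 0.864).

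The GTPase genes were also widely spread in WT. Sar1a read 8.96 and 9.33 (ATF6aKO), 8.19 and 7.94 (ATF6bKO), and 9.0 and 7.63 (WT). Sar1b, the paralogue needed for very large cargo such as chylomicrons, read 7.86 and 8.83 (ATF6aKO), 7.74 and 7.44 (ATF6bKO), and 8.08 and 6.08 (WT). Neither was called against WT with the brightest probe, although a second Sar1a probe was called higher in ATF6aKO (1.23 ± 0.39, adjusted p = 0.0389). In the outer cage, Sec13 differed from WT by -0.09 in ATF6aKO and -0.54 in ATF6bKO, and Sec31a by 0.61 and 0.36, none of them past the threshold. The second Sec31a probe was called higher in ATF6aKO (2.04 ± 0.30, adjusted p = 0.00219). Sec23b, Sec24c and Sec16a, the last a scaffold of ER exit sites, differed from WT by between -0.44 and 0.51 and were not called.

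Of the 11 COPI and ARF genes, 2 were called higher (Copg1 and Arcn1) and 1 lower (Cope) than WT, in each knockout. That is 27.3% in each, where 42.7% (ATF6aKO) and 37.6% (ATF6bKO) of all genes passed. Cope, the epsilon subunit of coatomer, read 9.98 and 9.79 (ATF6aKO), 9.95 and 10.11 (ATF6bKO), and 11.16 and 11.24 (WT). The knockout arrays lay close together and more than 1 unit below WT. Cope fell by 1.32 ± 0.16 in ATF6aKO (2.49-fold, adjusted p = 0.0013) and by 1.17 ± 0.16 in ATF6bKO (2.24-fold, adjusted p = 0.00225), and both calls held whichever array was left out.

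Arcn1, the delta subunit, and Copg1, a gamma subunit that binds cargo tails, went the other way. Arcn1 read 8.65 and 9.43 (ATF6aKO), 9.01 and 9.04 (ATF6bKO), and 8.07 and 7.47 (WT). Its differences were 1.27 ± 0.30 (2.41-fold, adjusted p = 0.012) and 1.26 ± 0.30 (2.39-fold, adjusted p = 0.0141). Copg1 read 9.31 and 9.03 (ATF6aKO), 8.89 and 8.90 (ATF6bKO), and 8.21 and 7.71 (WT), with differences of 1.21 ± 0.21 (2.32-fold, adjusted p = 0.00386) and 0.94 ± 0.21 (1.91-fold, adjusted p = 0.0119). For both genes the knockout and WT arrays did not overlap.

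These COPI calls depended on the probe and on single arrays. The second Copg1 probe was called lower in both knockouts (-0.90 ± 0.19, adjusted p = 0.00802, and -1.14 ± 0.19, adjusted p = 0.0040). The second Arcn1 probe differed by 0.55 and 0.43 and was not called. Without ATF6aKO replicate 2 the Arcn1 difference in that knockout was 0.88 (adjusted p = 0.0725). In ATF6bKO, leaving out its replicate 1 or 2 gave 1.27 and 1.24 for Arcn1 (adjusted p = 0.0741 and 0.0715) and 0.94 and 0.93 for Copg1 (adjusted p = 0.0708 and 0.0644).

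Copz2, one of a pair of zeta subunits, was widely spread in WT. It read 11.49 and 11.86 (ATF6aKO), 10.18 and 9.42 (ATF6bKO), and 11.17 and 9.38 (WT). ATF6aKO was highest, with one WT array near it and the other at the ATF6bKO level. The second Copz2 probe read between 7.63 and 7.87 on all 4 knockout arrays and 9.34 and 9.05 in WT, and was called lower in both knockouts (-1.45 ± 0.19, adjusted p = 0.00142, and -1.43 ± 0.19, adjusted p = 0.00184). The paralogue Copz1 differed from WT by 0.50 in ATF6aKO and 0.28 in ATF6bKO, not past the threshold. Copa, Copb1, Copb2 and Copg2 differed from WT by -0.17 to 0.63 in ATF6aKO and by -0.86 to 0.05 in ATF6bKO, with no call. Arf1, the GTPase that recruits coatomer, read 8.81 and 9.59 (ATF6aKO), 8.52 and 8.62 (ATF6bKO), and 10.09 and 9.10 (WT). Arf1 differed from WT by -0.40 and -1.03 (adjusted p = 0.399 and 0.0573), and Arf4 by 0.01 and -0.12.

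The TMED receptors, small p24 proteins that cycle between ER and Golgi in COPII and COPI vesicles and help select cargo, held 5 of the 11 higher calls in ATF6aKO. Of 8 genes, 5 were called higher than WT in ATF6aKO and 2 in ATF6bKO, with medians of 1.35 and 0.20, and none was called lower. That is 62.5% and 25%, where 42.7% and 37.6% of all genes passed in either direction. The ATF6bKO median was -0.15 without ATF6bKO replicate 1 and 0.64 without its replicate 2. Tmed4 read 9.79 and 10.15 (ATF6aKO), 9.996 and 10.10 (ATF6bKO), and 7.69 and 7.80 (WT). The knockout arrays sat together, more than 1 unit above WT. Tmed4 rose by 2.23 ± 0.18 in ATF6aKO (4.68-fold, adjusted p = 0.000498) and by 2.30 ± 0.18 in ATF6bKO (4.92-fold, adjusted p = 0.000597), and both calls held whichever array was left out. It has 1 kept probe.

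Tmed10, the p24 protein thought to anchor the family's complexes, read 10.64 and 11.33 (ATF6aKO), 10.51 and 9.91 (ATF6bKO), and 8.92 and 8.33 (WT). All knockout arrays lay above WT, and the differences were 2.36 ± 0.32 (5.13-fold, adjusted p = 0.00162) and 1.58 ± 0.32 (2.99-fold, adjusted p = 0.00791). Without ATF6bKO replicate 1 the latter was 1.28 (adjusted p = 0.0633). The second Tmed10 probe differed by -0.37 and -0.19, with no call.

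Tmed9 read 11.17 and 11.74 (ATF6aKO), 10.60 and 9.46 (ATF6bKO), and 9.77 and 7.46 (WT). ATF6aKO lay above WT on every array, and ATF6bKO overlapped WT. The WT arrays lay far apart, and the ATF6aKO difference of 2.84 ± 0.70 (7.15-fold, adjusted p = 0.0147) became 4.00 when WT replicate 1 was left out and 1.68 when the other was, and it did not pass without ATF6aKO replicate 1 (3.12, adjusted p = 0.0525) or 2 (2.56, adjusted p = 0.106). In ATF6bKO the Tmed9 difference was 1.41 ± 0.70 (adjusted p = 0.149). The second Tmed9 probe differed by 1.11 and 0.10, not called.

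Tmed2, a p24 protein of the beta subfamily, read 9.62 and 10.49 (ATF6aKO), 8.59 and 8.46 (ATF6bKO), and 9.35 and 8.10 (WT). ATF6aKO lay above the other arrays, while ATF6bKO lay between the WT arrays. Its difference from WT was 1.33 ± 0.42 in ATF6aKO (2.52-fold, adjusted p = 0.0374) and -0.20 ± 0.42 in ATF6bKO (adjusted p = 0.739). The second Tmed2 probe was also called higher in ATF6aKO (1.65 ± 0.28, adjusted p = 0.00347). With the brightest probe, the ATF6aKO difference was 1.96 when WT replicate 1 was left out and 0.71 when WT replicate 2 was (adjusted p = 0.107), 0.90 without ATF6aKO replicate 2 (adjusted p = 0.227), and unchanged in size but not past the threshold without either ATF6bKO array (adjusted p = 0.0632). Tmed3 read 11.56 and 11.50 (ATF6aKO), 11.17 and 9.87 (ATF6bKO), and 10.43 and 9.90 (WT). The ATF6aKO arrays were highest, and ATF6bKO overlapped WT. Tmed3 rose in ATF6aKO by 1.37 ± 0.39 (2.58-fold, adjusted p = 0.0263), which did not pass without ATF6aKO replicate 1 or 2 (1.34 and 1.39, adjusted p = 0.106 and 0.115) or WT replicate 2 (1.1, adjusted p = 0.0582). Tmed1, Tmed5 and Tmed7 differed from WT by between -0.06 and 0.20 in both knockouts, with no call.

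The 3 KDEL receptors, which catch ER proteins that have escaped to the Golgi, had negative differences from WT in both knockouts. In ATF6aKO 1 was called lower (33.3%, where 42.7% of all genes passed) and in ATF6bKO 2 (66.7%, against 37.6%). Kdelr1 read 8.38 and 8.91 (ATF6aKO), 7.89 and 7.78 (ATF6bKO), and 10.02 and 9.73 (WT). The 3 genotypes did not overlap, with ATF6bKO lowest. Kdelr1 fell by 1.23 ± 0.22 in ATF6aKO (2.35-fold, adjusted p = 0.00413) and by 2.04 ± 0.22 in ATF6bKO (4.12-fold, adjusted p = 0.00102), and both calls held whichever array was left out. A second, dimmer Kdelr1 probe gave 0.33 and -0.30, not called.

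Kdelr2 read 8.45 and 8.72 (ATF6aKO), 8.14 and 8.01 (ATF6bKO), and 9.18 and 8.69 (WT). ATF6aKO overlapped WT and ATF6bKO lay below it. The difference was -0.35 ± 0.21 in ATF6aKO (adjusted p = 0.214) and -0.86 ± 0.21 in ATF6bKO (1.81-fold, adjusted p = 0.0164). The ATF6bKO call was lost without ATF6bKO replicate 1 (-0.92, adjusted p = 0.0714) or 2 (-0.79, adjusted p = 0.0934) and without WT replicate 1 (-0.61, adjusted p = 0.0564). Kdelr3 read 8.5 and 9.06 (ATF6aKO), 8.39 and 7.55 (ATF6bKO), and 9.37 and 8.33 (WT). ATF6aKO lay within the WT range and ATF6bKO overlapped it, and the differences from WT of -0.07 ± 0.40 and -0.88 ± 0.40 did not pass (adjusted p = 0.901 and 0.123).

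Of 7 cargo receptor and ERGIC genes tested, 2 were called higher and 2 lower in ATF6aKO (57.1%, where 42.7% of all genes passed). In ATF6bKO 3 were called lower (42.9%, against 37.6%). Lman1 (ERGIC-53), the lectin that carries glycoproteins to the ERGIC together with MCFD2, read 9.12 and 9.65 (ATF6aKO), 8.56 and 7.91 (ATF6bKO), and 7.64 and 7.13 (WT). The genotypes stood in that order without overlap. Lman1 rose by 2.0 ± 0.29 in ATF6aKO (4.01-fold, adjusted p = 0.00215), which held whichever array was left out, and the ATF6bKO difference of 0.85 ± 0.29 did not pass (adjusted p = 0.0541). The second Lman1 probe gave 0.28 and -0.25, not called. Its partner Mcfd2 read 7.03 and 7.27 (ATF6aKO), 6.30 and 6.08 (ATF6bKO), and 7.42 and 6.60 (WT). ATF6aKO lay within the WT range and ATF6bKO below it. Mcfd2 differed by 0.14 ± 0.27 in ATF6aKO and fell by 0.82 ± 0.27 in ATF6bKO (1.76-fold, adjusted p = 0.0477), where it was well above background on 1 of 2 arrays. The Mcfd2 call was lost without any 1 array but WT replicate 2, with differences of -0.41 (without WT replicate 1, adjusted p = 0.187) to -0.93 (without ATF6bKO replicate 1, adjusted p = 0.123), a value of -0.71 without ATF6bKO replicate 2 (adjusted p = 0.199), and an adjusted p of 0.0751 without either ATF6aKO array.

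Surf4, a receptor for several soluble secreted proteins, read 8.68 and 9.61 (ATF6aKO), 8.21 and 7.32 (ATF6bKO), and 8.16 and 6.89 (WT). ATF6aKO was highest and ATF6bKO overlapped WT. The ATF6aKO difference was 1.62 ± 0.49 (3.08-fold, adjusted p = 0.0316), but 2.26 when WT replicate 1 was left out, 0.99 when WT replicate 2 was (adjusted p = 0.0816) and 1.16 without ATF6aKO replicate 2 (adjusted p = 0.202). Mia3 (TANGO1), the receptor that loads procollagen at ER exit sites, read 8.37 and 8.40 (ATF6aKO), 8.51 and 8.35 (ATF6bKO), and 8.26 and 8.22 (WT). The knockouts lay above WT by 0.15 ± 0.16 and 0.20 ± 0.16 without passing (adjusted p = 0.453 and 0.353). Second probes of Mia3 (0.76 ± 0.18, adjusted p = 0.0134) and of the lectin Lman2 (0.77 ± 0.19, adjusted p = 0.0156) were called higher in ATF6aKO, while the brighter Lman2 probe differed from WT by -0.07 and -0.21.

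Ergic1 and Ergic3, membrane proteins that cycle through the ERGIC, were lower in both knockouts with their brightest probes. Ergic1 read 6.86 and 6.87 (ATF6aKO), 6.83 and 6.94 (ATF6bKO), and 8.38 and 8.06 (WT). All 4 knockout arrays lay together, more than 1 unit below WT. It fell by 1.36 ± 0.17 (2.57-fold, adjusted p = 0.00138) and by 1.34 ± 0.17 (2.53-fold, adjusted p = 0.00176), whichever array was left out, but its second probe was called higher in ATF6aKO (0.82 ± 0.21, adjusted p = 0.0157) and differed by 0.13 in ATF6bKO. Ergic3 read 11.03 and 10.88 (ATF6aKO), 11.08 and 11.22 (ATF6bKO), and 11.72 and 11.93 (WT). The knockouts lay below WT by 0.88 ± 0.17 (1.83-fold) and 0.68 ± 0.17 (1.6-fold). The calls had adjusted p of 0.00562 and 0.0167, and the ATF6bKO call was lost without ATF6bKO replicate 1 (-0.61, adjusted p = 0.113) or 2 (-0.75, adjusted p = 0.0631) or WT replicate 2 (-0.58, adjusted p = 0.068).

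Among the SNAREs and the TRAPP tether, 2 of 4 genes were called higher in ATF6aKO and 1 in ATF6bKO. That is 50% and 25%, where 42.7% and 37.6% of all genes passed in either direction. Gosr2 (membrin), a SNARE of the cis-Golgi, read 9.29 and 10.15 (ATF6aKO), 9.76 and 9.47 (ATF6bKO), and 8.26 and 7.71 (WT). Every knockout array lay above WT, and the differences were 1.73 ± 0.31 (3.33-fold, adjusted p = 0.00444) and 1.63 ± 0.31 (3.1-fold, adjusted p = 0.0065). Its second probe was called higher in both as well (1.97 ± 0.23, adjusted p = 0.00107, and 1.53 ± 0.23, adjusted p = 0.00281). Without ATF6bKO replicate 1 the ATF6bKO difference was 1.49 (adjusted p = 0.054). Sec22b, a SNARE of ER-Golgi vesicles, read 9.83 and 10.92 (ATF6aKO), 8.91 and 8.52 (ATF6bKO), and 8.93 and 7.72 (WT). ATF6aKO stood above all other arrays, and ATF6bKO lay between the WT arrays. The ATF6aKO difference was 2.05 ± 0.46 (4.15-fold, adjusted p = 0.0101). It was 2.66 when WT replicate 1 was left out, 1.45 when WT replicate 2 was, and 1.51 without ATF6aKO replicate 2 (adjusted p = 0.0777). Bet1 differed from WT by 0.53 and -0.04, and the TRAPP core subunit Trappc3 by -0.10 and -0.31, with no call.

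The comparison of the knockouts with each other stayed within 1 slide and 1 channel. The codes in the array names differ by genotype. If they mark places on the slide, place and genotype cannot be told apart. No member passed the threshold (0 of 44 in limma, 0 of 65 probes), as none of the 19122 genes did (0% of genes and of probes). At an unadjusted p below 0.05, 14 members passed (31.8%), all of them higher in ATF6aKO, where 5.09% of all genes were higher at that limit. With a trended and robust variance the members' count was 10 (22.7%, where 6.0% of genes passed in either direction). It was 3 without ATF6aKO replicate 2 (6.82%, where 4.48% of genes passed in either direction), 4 without ATF6bKO replicate 2 (9.09%, against 1.93%) and 1 with the authors' deposited table (2.27%, against 5.49%). On the knockout arrays alone it was 22 (50%, against 8.32%), as it was without either WT array (50%, against 8.5%). Both ATF6aKO arrays lay above both ATF6bKO arrays in 28 of 44 members (63.6%), where the same held for 20.1% of all genes. They lay below in 3 members, namely Sec23b, Preb and Ergic3, where 16.9% of all genes did. Sec23a, counted among the 28 and the 14, passed the background filter only through its ATF6aKO arrays, which favoured a positive difference for it. The members' median difference was 0.40, beside -0.005 over all genes, and 35 of 44 members were positive against 49.1% of genes.

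**Figure D3:**
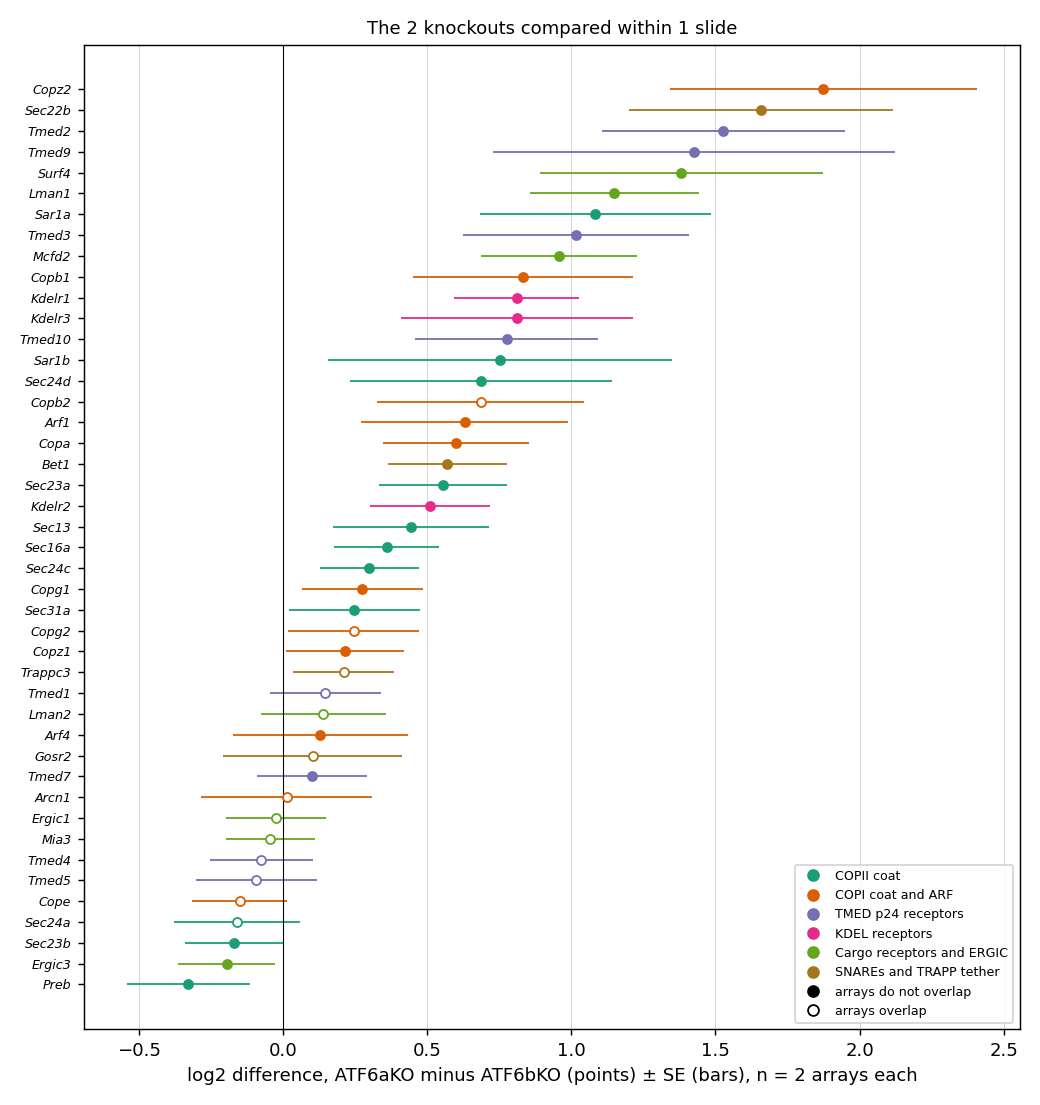
Log2 difference between ATF6aKO and ATF6bKO for each member, ordered by size; points are fitted differences, bars are SE (n = 2 arrays each), filled points mark genes whose arrays do not overlap. Copz2 (1.87), Sec22b (1.66), Tmed2 (1.53), Tmed9 (1.43) and Surf4 (1.38) lie at the top, and no difference passes an adjusted p of 0.05. Each point reads the brightest probe, and the second Copz2 probe gave -0.02.

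By role, the ATF6aKO arrays lay above in 8 of 11 COPII genes (median 0.36), 7 of 11 COPI and ARF genes (0.28), 5 of 8 TMED genes (0.46), 3 of 3 KDEL receptors (0.81), 3 of 7 cargo receptor and ERGIC genes (0.14) and 2 of 4 SNARE and tether genes (0.39). Over all genes the share above was 20.1%. Sec23a, one of the 8 COPII genes, passed the background filter only through its ATF6aKO arrays. The smallest adjusted p in limma was that of Lman1 (1.15 ± 0.29, adjusted p = 0.633). Next came Kdelr1 (0.81 ± 0.22), Sec22b (1.66 ± 0.46), Tmed2 (1.53 ± 0.42), Mcfd2 (0.96 ± 0.27) and Copz2 (1.87 ± 0.53), all at an adjusted p of 0.662. Sar1a differed by 1.08 ± 0.40, Tmed3 by 1.02 ± 0.39, and Tmed10 by 0.78 ± 0.32. These values and the order depend on the probe. Second probes of Lman1 (0.53), Kdelr1 (0.63), Tmed2 (1.18) and Sar1a (1.18) were also positive, but those of Copz2 (-0.02) and Tmed10 (-0.18) were not. The second Arf4 probe gave 1.45 where its brightest gave 0.13. Tmed4 (-0.07), Arcn1 (0.01), Cope (-0.15), Ergic1 (-0.02) and Gosr2 (0.10), each called against WT in both knockouts, had overlapping knockout arrays. Over all 65 probes, 52 were positive.

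The 6 members with the UPRE letters were all positive within the slide, with a median of 0.69. Copb1 differed by 0.83 ± 0.38, Kdelr3 by 0.81 ± 0.40, Sec24d by 0.69 ± 0.45, Copb2 by 0.69 ± 0.36, and Arf1 by 0.63 ± 0.36. Sec23a was at least 1.43-fold higher, and the median was also 0.69 with Sec23a at that bound. Sec23a passed the background filter only through its ATF6aKO arrays, which favoured a positive difference for it. In 5 of the 6, Sec23a among them, the ATF6aKO arrays lay above, and Copb2 overlapped (7.80 and 8.73 against 7.80 and 7.36). Among the 33 tested members with a window that lacked the letters, 24 were positive, the ATF6aKO arrays lay above in 19 (57.6%), and the median was 0.25. Among 130 other genes with the letters, 49.2% were positive and the ATF6aKO arrays lay above in 21.5%. None of the 6 was called against WT. Creb3l2 (BBF2H7), an ATF6 relative known to drive Sec23a in chondrocytes, read 7.66 and 7.70 (ATF6aKO), 6.95 and 6.93 (ATF6bKO), and 6.84 and 6.71 (WT), and was higher than WT in ATF6aKO (0.90 ± 0.15, adjusted p = 0.00365) but not past the threshold against ATF6bKO (0.73 ± 0.15, adjusted p = 0.625).

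On the knockout slide the members shared an order of arrays with several other lists. The mean over the 44 members was 8.73 and 9.02 in ATF6aKO and 8.49 and 8.26 in ATF6bKO. The 14 chondrocyte markers had the same order, and 12 of them lay above in ATF6aKO and all 14 were positive. The osteoblast and osteocyte markers (8.06 and 8.09, against 7.90 and 7.57) and the lists of other exit site, TRAPP and ARF genes also had it. The osteoclast, red cell and endothelial markers did not. Log2 of the summed chondrocyte level ran from 16.72 to 16.98 in ATF6aKO, 14.89 to 16.02 in ATF6bKO and 14.02 to 14.34 in WT. The share of chondrocytes in the tissue cut out, and its part in the difference between the knockouts, was not tested. Between slides the order differed, since the members' mean in WT was 8.71 and 8.11, within or just below the knockout range, while the mean of the chondrocyte markers was lower in WT. Of these 14 markers, 13 lay above WT on both ATF6aKO arrays and 1 below (Col11a2). On both ATF6bKO arrays 10 lay above WT and 2 below (Col11a2 and Comp). Over all 19122 genes, 6614 lay above WT and 7382 below in ATF6aKO, and 6375 and 7552 in ATF6bKO.

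**Figure D4:**
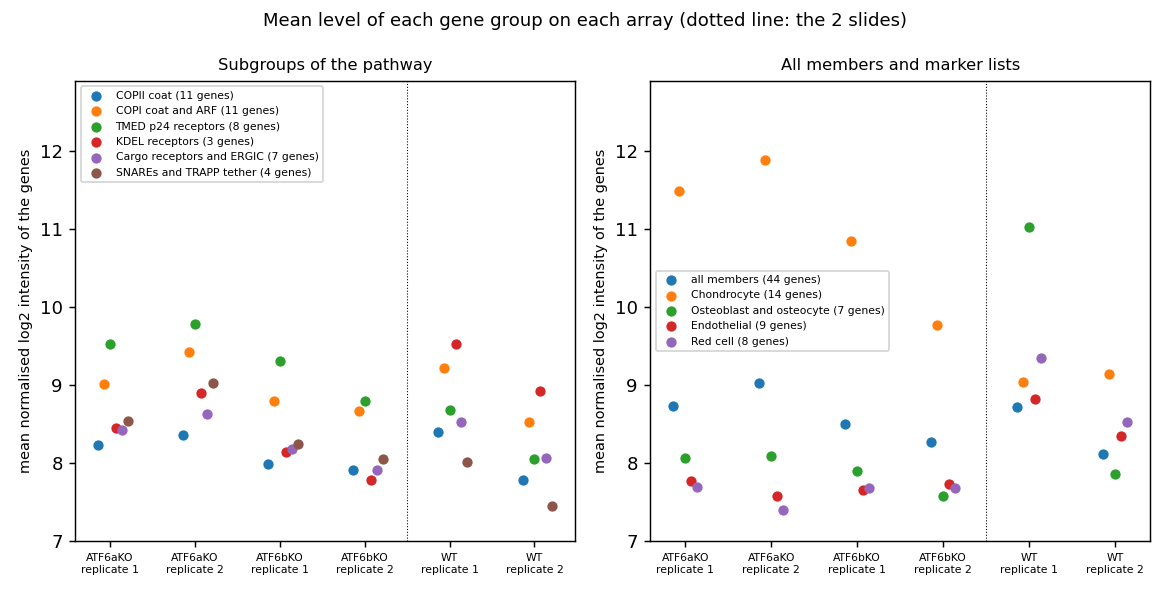
Mean normalised log2 intensity of each subgroup of members (left) and of all members and 4 marker lists (right) on each array; each point is the mean over the genes counted in the legend, and the dotted line divides the slides. On the knockout slide every subgroup, the chondrocyte markers and the osteoblast and osteocyte markers are highest on ATF6aKO replicate 2 and lowest on ATF6bKO replicate 2. On the other slide WT replicate 1 is above WT replicate 2 in every subgroup.

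The 2 arrays of a genotype differed in the same direction for most members. WT replicate 1 was higher than WT replicate 2 in 38 of 44 members by a median of 0.52, where 37.5% of all genes were higher and the median was -0.08. ATF6aKO replicate 1 was lower than replicate 2 in 32 members (median difference -0.24), and ATF6bKO replicate 1 was higher than replicate 2 in 30 (median 0.19). Over all genes, replicate 1 was higher in 51.2% (ATF6aKO, median 0.01) and 50.7% (ATF6bKO, median 0.005). The median absolute gap between replicates was 0.52, 0.33 and 0.24 for members in WT, ATF6aKO and ATF6bKO, against 0.20, 0.22 and 0.17 for all genes. The members with the widest WT gap included Tmed9, Sar1b and Copz2. WT replicate 1 was also the array with the high means of bone cell markers, and the part of those cells in the gap was not tested.

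Of the 20 members with several kept probes, 11 (55%) had all probes on the same side of 0 in each comparison with WT, where 54.9% and 53.7% of the 4859 such genes did in ATF6aKO and ATF6bKO. Within the slide 12 of 20 (60%) did, against 54.3%. In ATF6aKO, 3 of the 20 (Copg1, Ergic1 and Preb) had probes called in opposite directions, as had 362 of the 4859 genes, and in ATF6bKO 1 (Copg1), as had 287. All probes were called in 1 direction for Gosr2 and Tmed2 in ATF6aKO and for Gosr2 in ATF6bKO. The files give no transcript position for the probes that would tell which isoform each reads.

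**Figure D5:**
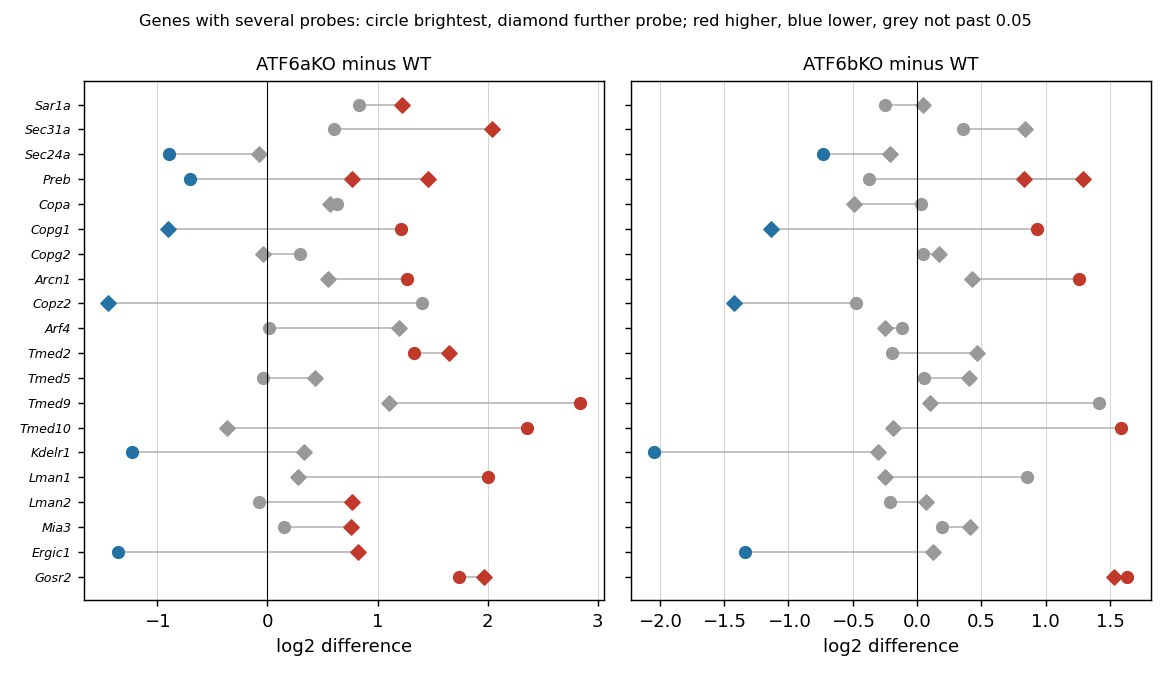
Log2 difference from WT of every kept probe of the 20 members with several probes, in ATF6aKO (left) and ATF6bKO (right); circles are the brightest probe, diamonds the others, red and blue are called higher and lower (adjusted p below 0.05). Gosr2 probes lie together at the right in both panels, whereas those of Copg1, Ergic1, Preb and Copz2 lie on both sides of 0 in ATF6aKO.

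Other genes of the route were called in both directions. Of 23 further ER exit site and COPII factors, 5 were called higher and 6 lower than WT in ATF6aKO (47.8%, against 42.7% of all genes). In ATF6bKO 2 were called higher and 6 lower (34.8%, against 37.6%). Cnih1, a cornichon cargo receptor, was higher in both (2.0 ± 0.29, adjusted p = 0.00211, and 1.21 ± 0.29, adjusted p = 0.0156), as was Cnih4 in ATF6bKO (0.98), and Tfg, a protein that organises the ER exit site, was higher in ATF6aKO (1.06, with WT well above background on 1 of 2 arrays). The lectin Lman2l was lower in both (-1.01 and -1.22), with Sec16b in ATF6aKO (-0.97) and Yif1a in ATF6bKO (-0.87). Of 35 further TRAPP, tethering and fusion factors, 9 were higher and 3 lower in ATF6aKO (34.3%), and 5 and 4 in ATF6bKO (25.7%). Both shares lay below those of all genes. Nsf, the ATPase that takes SNARE complexes apart, rose in both (1.85 ± 0.19, adjusted p = 0.000798, and 1.83 ± 0.19, adjusted p = 0.00102), as did Trappc2 (1.30 and 1.18). The SNARE Ykt6 fell in both (-1.86 and -1.94), and Bnip1, not well above background in either knockout, was at least 2.03-fold and 1.92-fold lower (adjusted p = 0.00182 and 0.00254). Bnip1 passed the background filter only through its WT arrays, which favoured a lower call in the knockouts.

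Of 31 further ARFs, ARF regulators and golgins, 9 were higher and 4 lower in ATF6aKO (41.9%, against 42.7% of all genes). In ATF6bKO 5 were higher and 5 lower (32.3%, against 37.6%). The higher genes of smallest p were Arf2 (1.58) and Arf5 (1.12) in ATF6aKO, and Arf5 (0.98) and Arf3 (1.13) in ATF6bKO. Cog1 (-1.58 and -1.70) and Cog4 (-0.90 and -1.21), subunits of a Golgi tether, were lower in both. Of 5 OASIS relatives of ATF6, 1 was higher and 1 lower in ATF6aKO (40%) and 3 lower in ATF6bKO (60%). Creb3l1 (OASIS) fell in both (-1.59 and -1.66), and Creb3 in ATF6bKO (-1.66, well above background there on 1 of 2 arrays). Within the slide none of these genes was called, as none of all genes was. The ATF6aKO arrays lay above ATF6bKO in 9 of 23 (39.1%), 12 of 35 (34.3%), 12 of 31 (38.7%) and 3 of 5 (60%) genes of these lists. The same held for 20.1% of all genes. They lay below in 2, 1, 2 and 0 genes of the lists and in 16.9% of all genes.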

How the data were processed

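Growth plate RNA of 3 genotypes (2 arrays each) was amplified, labelled with Cy5 and hybridised to Agilent arrays, per the labels. The deposited scanner files hold median spot and background intensity values, and the submitters' processing notes name Agilent Feature Extraction 10.7.1.1. The authors' deposited log2 table was an alternative, because its columns follow the green channel (r between 0.9989 and 0.9999 for differences of arrays). On the knockout arrays that channel is not the labelled red one. Its scale and centring are not given.

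Red (knockout) or single-channel green (WT) values were background-corrected by normexp (offset 50), taken to log2 and quantile normalised. Outlier spots were left out, each gene was read by its brightest kept probe, and 1 linear model covered all arrays (limma 3.58.1, R 4.3.3; lmFit, eBayes, Benjamini-Hochberg threshold 0.05). It was tested on simulated data. Alternatives covered signal, scaling, filter, probes, variance, block and each array left out. Members and lists were chosen with earlier results of these data known. The rule names each member past the threshold, the 2 of smallest p per direction in other lists, and Sec23a, Sec24d and Creb3l2. The number of arrays limits the precision.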

Additional observations from a re-analysis of the deposited data

How the results depend on the processing

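With the authors' deposited table, 33 members were called in ATF6aKO against WT (75%, against 50.8% of genes) instead of 17. In ATF6bKO 30 were called (68.2%, against 51.7%) instead of 12. The ATF6aKO arrays lay above ATF6bKO in 1 member instead of 28 (2.27%, against 6.18% of genes). That table gave differences from WT of 0.10 and 0.15 for Cope, 1.15 and 1.0 for Ergic1 (ATF6aKO and ATF6bKO), and of -0.45 for Copg1, 0.85 for Kdelr2 and 7.0 for Mcfd2 in ATF6bKO, all opposite in sign. On the knockout arrays that table follows the green channel and not the labelled red one. Of the processed green intensities there, 54.2% to 59.1% were at most 1. The part of this in the changed counts and signs was not tested. The mean over probes reversed Preb in ATF6aKO (0.51) and Copg1 in ATF6bKO (-0.10). Further probes reversed Preb (1.46 and 0.77), Copg1 (-0.90), Tmed10 (-0.37), Kdelr1 (0.33) and Ergic1 (0.82) in ATF6aKO, and Copg1 (-1.14), Tmed10 (-0.19) and Ergic1 (0.13) in ATF6bKO.

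Leaving out each array gave 9 to 24 members called in ATF6aKO (20.5% to 54.5%, against 24.5% to 42.2% of genes), 4 to 17 in ATF6bKO (9.09% to 38.6%, against 16.1% to 36.7%) and 0 between the knockouts, so that the members' share lay below that of all genes in some settings and above it in others. The count of members with ATF6aKO arrays above, added after seeing the data, was 28 with all arrays (63.6%, against 20.1% of genes), 29 to 34 with 1 knockout array left out (65.9% to 77.3%, against 31.5% to 38.0%) and 22 of 38 among probes well above background on all arrays (57.9%, against 19.1%). With 75th percentile scaling 20 members were called in ATF6aKO (45.5%, against 45.8% of genes) and 13 in ATF6bKO (29.5%, against 41.2%). The genes called in ATF6bKO were 4828 higher and 3053 lower, against 3313 and 3877, as the median of all genes moved from -0.05 to 0.16. In ATF6aKO they were 5163 and 3601, against 3886 and 4271, with the median at 0.13. With the replicate block, 17 members were called in ATF6aKO (38.6%, against 39.7% of genes) and 10 in ATF6bKO (22.7%, against 34.7%). Between the knockouts 0 were called (0% of genes). The numbers did not pair the samples (r of the replicates' deviations between -0.16 and 0.20), and only 2 pairs exist.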
